A study of Macaca mulatta with 26 samples.

Results

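The 26 genes described here encode enzymes of cholesterol synthesis, proteins that regulate those enzymes through SREBP, and the sterol carrier STARD4. They were chosen by symbol from a deposited expression table of 50308 genes, and all 26 were in it. The table came from RNA sequencing of pineal gland and retina of adult rhesus macaques. Pineal gland and retina were each represented by 12 libraries, 3 at each of dawn (0500 to 0700 h), mid-day (1100 to 1300 h), dusk (1700 to 1900 h) and midnight (2300 to 0100 h). The background samples were 2 control pools, each mixed from 16 other tissues, 1 of mid-day and 1 of midnight. The 12 animals, of both sexes and 3 to 33 years old, were housed in a cycle of 12 h light and 12 h darkness that began at 0600 h. They were collected over 11 years, and the labels name no treatment or genotype. The labels do not say which pineal and retina libraries came from the same animal, so the p-values below treat all libraries as separate samples.

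Cholesterol is built from acetyl-CoA. Condensation of acetyl-CoA units gives HMG-CoA, which is reduced to mevalonate; mevalonate is turned into isoprene units, joined into squalene, closed into the ring of lanosterol and trimmed to cholesterol. The pathway is governed by SREBP transcription factors, which lie in the endoplasmic reticulum bound to the escort protein SCAP. INSIG proteins hold this complex there when sterol is plentiful; when sterol is scarce, SCAP carries SREBP to the Golgi, where proteases release the active factor. Most of the enzymes, and INSIG1 itself, are known SREBP targets. In the nervous system most cholesterol is made locally, with much of it going into myelin, and in the retina it is a component of photoreceptor membranes.

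Values are FPKM, fragments per kilobase of gene and per M mapped reads, as the authors deposited them. Levels of different genes are set side by side on this scale, with a limit. The submitters name the human build hg19, so a gene with a divergent sequence may be counted low. Differences are log2 changes of FPKM + 0.5 from limma, fitted over all genes that passed a filter of 1 FPKM in at least 3 fitted libraries, or at least 2 for the comparisons with the pools. Changes of genes near 0.5 FPKM are understated on this scale. A gene was called where the Benjamini-Hochberg adjusted p over all genes tested was under 0.05. Whole reads recovered from the FPKM steps gave a depth of 11.7 to 16.1 M reads assigned to genes per pineal library and 16.9 to 21.4 M per retina library, and of 23.0 M for the mid-day pool and 16.2 M for the midnight pool. The tissue labels fitted their markers: 5 pinealocyte markers summed to 826 to 1274 FPKM in pineal libraries, 281 to 451 in retina libraries and 5.79 to 8.51 in the pools, and 7 photoreceptor markers to 43.1 to 159 FPKM in pineal libraries, 2375 to 2983 in retina libraries and 4.15 to 5.87 in the pools. Of the 5 pinealocyte markers, 3 were higher in every pineal library than in any retina library. TPH1 carried most of the pineal sum, with medians of 584 FPKM in pineal gland and 11.8 in retina. AANAT (52.4 and 55.0) and CRX (191 and 294) did not have higher medians in pineal gland.

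Some libraries stood apart. The share of genes listed at 0 was 44.8% in retina dawn 2 and 45.7% in retina mid-day 1, whereas it lay between 33.5% and 35.2% for the remaining 10 libraries of that tissue. In pineal libraries it was 43.1% to 47.9%, so these retina libraries had a share like that of pineal gland. It was 37.5% in the mid-day pool and 35.7% in the midnight pool. The part of whatever sets this share in the differences between tissues was not tested. Pineal dusk 3 carried spermatid transcripts: PRM1, a protamine of sperm chromatin, was at 237 FPKM there and at no more than 0.180 FPKM in the other 11 pineal libraries, and PRM2, TNP1, TNP2, ODF1, AKAP4 and SMCP had the same pattern. These genes other than PRM1 were chosen after their values were seen. PRM1 was also at 2.46 FPKM in the mid-day pool and 512 FPKM in the midnight pool, so the pools were not alike in this tissue. In bulk tissue, fewer cells of a type and less RNA per cell cannot be told apart.

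Cholesterol genes spanned a wide range of levels in pineal gland, with the brake INSIG1 at the top. INSIG1 had the highest pineal median of the 26, 40.1 FPKM, above 95.3% of expressed pineal genes. HMGCS1, the synthase that makes HMG-CoA, was next at a median of 35.2 FPKM. MSMO1, SC5D and SQLE followed at 27.5, 27.2 and 26.3 FPKM, medians that lie closer together than the spread of any of them over the 12 libraries. The order was different in retina, where GGPS1, SCAP and MSMO1 led with medians of 33.1, 31.9 and 29.2 FPKM. INSIG1 was ninth there at 16.01 FPKM. CYP51A1, the lanosterol demethylase, had the lowest counted level in all sample kinds, with medians of 0.311 FPKM in pineal gland, 0.0784 in retina and 0.471 in the pools. It rested on 7 to 20 reads per pineal library and 3 to 12 per retina library and failed the filter, so 25 genes were tested. The copy CYP51P3 had higher medians, 0.762, 0.834 and 1.79 FPKM in the same order. Whether reads of CYP51A1 were lost in counting was not tested. With no filter CYP51A1 was called higher in pineal gland than in retina, at 0.42 (limma adjusted p = 6.18e-06).

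**Figure D1:**
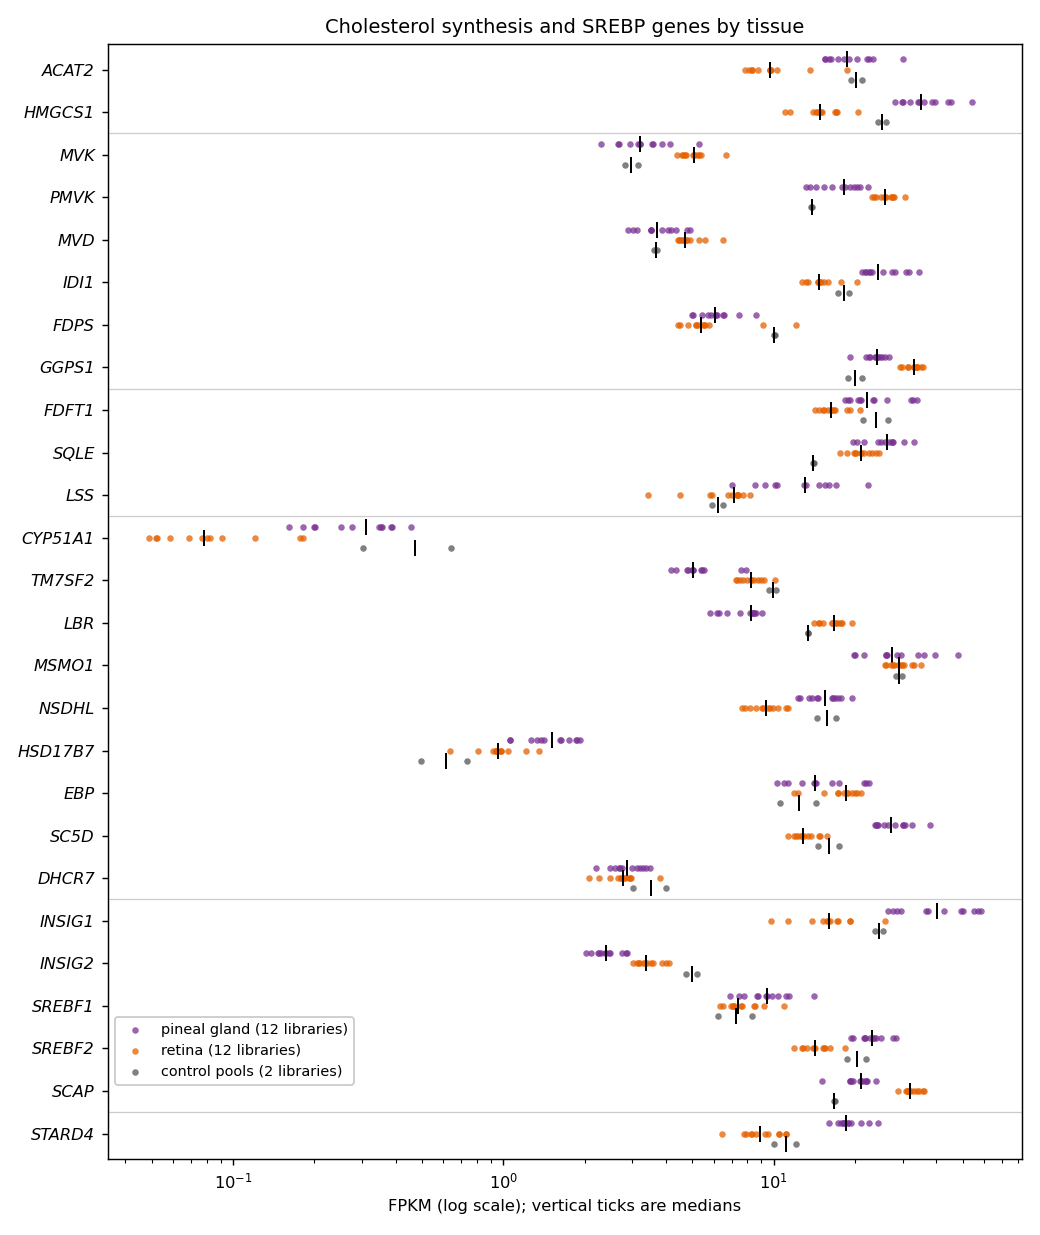
FPKM (log axis) of the 26 genes in each of the 12 pineal, 12 retina and 2 pooled libraries, grouped by role from HMG-CoA formation at the top to STARD4 at the bottom; each point is a library and vertical ticks are medians. INSIG1, HMGCS1, SC5D and STARD4 lie higher in every pineal library than in every retina library, LBR and SCAP lower, and CYP51A1 stands far below the rest.

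Pineal gland and retina differed in most of these genes, in both directions. Of the 25 tested, 21 were called, 13 higher and 8 lower in pineal gland. Most genes that passed the filter differed between these tissues: 83% of the 24740 tested were called, 34.9% higher and 48.1% lower in pineal gland. The number of calls was therefore near the background, and the split between directions leaned the other way. The median change of the 25 was 0.27, against -0.18 over all genes. In 7 of the 25 every pineal library was above every retina library (16.8% of all genes), and in 5 every pineal library was below (14%). The 4 genes not called were FDPS, MSMO1, EBP and DHCR7, for which the 95% intervals were -0.19 to 0.34, -0.26 to 0.20, -0.43 to 0.05 and -0.10 to 0.23. The count was 21 to 23 in the 32 alternatives run.

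Both genes that lead to HMG-CoA were higher in pineal gland. ACAT2, which condenses acetyl-CoA in the cytosol, ranged over 15.5, 18.6 and 30.1 FPKM (lowest, median, highest) in pineal libraries and 7.86, 9.70 and 18.8 FPKM in retina libraries, and changed by 0.93 ± 0.12 (log2, SE). The groups overlapped because retina mid-day 1, at 18.8 FPKM, and retina dawn 2, at 13.7 FPKM, lay above the other 10 retina libraries. Without those 2 libraries the change was 1.06 ± 0.08. HMGCS1 ranged over 28.2, 35.2 and 54.4 FPKM in pineal libraries and 11.0, 14.9 and 20.6 FPKM in retina libraries. Its lowest pineal library was above its highest retina library, and the change was 1.26 ± 0.09 (adjusted p = 9.23e-11).

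The middle of the pathway ran against that. MVK and PMVK, the kinases that phosphorylate mevalonate, and MVD, the decarboxylase after them, were lower in pineal gland by -0.54 ± 0.07, -0.57 ± 0.08 and -0.34 ± 0.06. PMVK ranged over 13.2, 18.2 and 22.3 FPKM in pineal libraries and 23.0, 25.9 and 30.5 FPKM in retina libraries, with no overlap. IDI1, which isomerises the isoprene unit, went with HMGCS1: 21.2, 24.3 and 34.6 FPKM in pineal libraries against 12.7, 14.8 and 20.3 FPKM in retina libraries, again with no overlap and a change of 0.75 ± 0.08. At the branch point, GGPS1, which draws isoprenoid off for protein prenylation, was lower in every pineal library (19.2, 24.1 and 26.7 FPKM) than in any retina library (29.3, 33.1 and 35.8 FPKM), a change of -0.46 ± 0.04. FDPS, which makes farnesyl diphosphate for the sterol branch, did not differ on all libraries (0.07 ± 0.13). Its highest retina values were in retina mid-day 1, at 12.1 FPKM, and retina dawn 2, at 9.13 FPKM, and without them it was called at 0.24 ± 0.08 (limma adjusted p = 0.0074). That was the 1 alternative of 32 that called FDPS, and the adjusted p reached 0.871 in the others.

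All 3 enzymes from squalene to lanosterol were higher in pineal gland. FDFT1, which makes squalene, changed by 0.50 ± 0.08 and SQLE, which oxidises it, by 0.27 ± 0.07, each with overlapping groups. LSS, which closes the rings, ranged over 7.005, 13.1 and 22.3 FPKM in pineal libraries and 3.44, 7.15 and 8.20 FPKM in retina libraries. It changed by 0.91 ± 0.15, and the lowest pineal library, dawn 2, lay inside the retina range.

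The steps after lanosterol were mixed. SC5D, the desaturase of lathosterol, ranged over 23.7, 27.2 and 37.9 FPKM in pineal libraries and 11.3, 12.9 and 15.7 FPKM in retina libraries. The groups were far apart and the change was 1.05 ± 0.06 (adjusted p = 2.39e-12), the smallest adjusted p of the 25. NSDHL, part of the complex that removes methyl groups from the ring, changed by 0.69 ± 0.07 with no overlap, and HSD17B7, a reductase in the same complex, by 0.44 ± 0.08 at 1.06 to 1.92 FPKM in pineal libraries and 0.636 to 1.35 FPKM in retina libraries.

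Both sterol C14 reductases were lower in pineal gland. LBR, which is also the lamin B receptor of the nuclear envelope, ranged over 5.83, 8.22 and 9.09 FPKM in pineal libraries and 14.1, 16.7 and 19.5 FPKM in retina libraries, a change of -1.07 ± 0.07. TM7SF2, the other reductase, changed by -0.59 ± 0.09. Their summed level was 10.7 to 16.02 FPKM in pineal libraries, 23.3 to 27.7 in retina libraries and 23.1 and 23.6 in the pools. EBP, the sterol isomerase, was not called on all libraries (-0.19 ± 0.11). It was lowest in the same pair of retina libraries, 11.9 FPKM in dawn 2 and 12.3 FPKM in mid-day 1, and without them it was called lower in pineal gland at -0.29 ± 0.10 (limma adjusted p = 0.0148). It was also called without retina dawn 2 alone, and in no other of the 32 alternatives, over which the adjusted p reached 0.259.

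The regulators were split as well. INSIG1 ranged over 26.6, 40.1 and 58.5 FPKM in pineal libraries and 9.82, 16.01 and 25.8 FPKM in retina libraries; the lowest pineal library was just above the highest retina library, retina midnight 3. Its change of 1.30 ± 0.13 (adjusted p = 1.53e-08) was the highest of the 25. INSIG2, the second retention protein, which sterol depletion does not induce in the same way, went the other way with no overlap: 2.03, 2.39 and 2.88 FPKM in pineal libraries and 3.03, 3.37 and 4.10 FPKM in retina libraries, a change of -0.44 ± 0.06. The ratio of INSIG1 to INSIG2 was thus 9.58 to 28.8 in pineal libraries, 3.10 to 6.30 in retina libraries, and 4.54 and 5.34 in the pools. SREBF2, which encodes the SREBP of the cholesterol genes, was higher in every pineal library (19.3, 23.1 and 28.3 FPKM) than in any retina library (11.9, 14.2 and 18.3 FPKM), a change of 0.66 ± 0.06. SREBF1, whose product favours fatty acid genes, changed by 0.28 ± 0.08 with overlapping groups. SCAP was lower in every pineal library (15.1, 21.0 and 23.9 FPKM) than in any retina library (29.0, 31.9 and 36.0 FPKM), a change of -0.66 ± 0.06. STARD4, which moves sterol between membranes and is itself an SREBP-2 target, was higher in every pineal library (16.05, 18.5 and 24.3 FPKM) than in any retina library (6.44, 8.95 and 11.1 FPKM), a change of 1.04 ± 0.07.

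**Figure D2:**
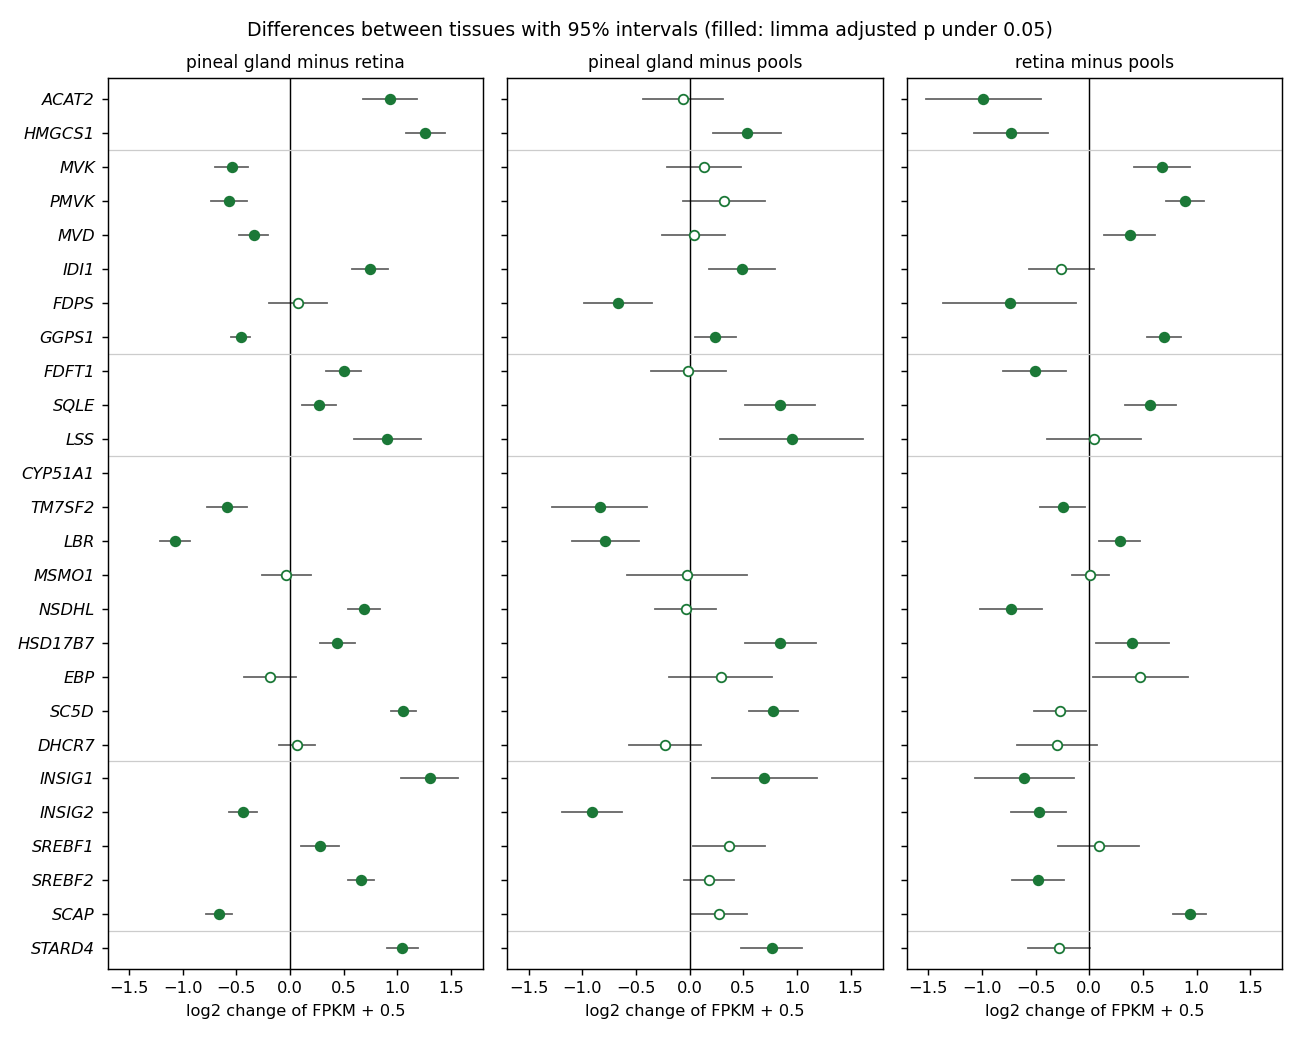
Log2 change of FPKM + 0.5 with 95% intervals for the 25 tested genes in pineal gland minus retina, pineal gland minus pools and retina minus pools; filled circles passed an adjusted p of 0.05. HMGCS1 and INSIG1 lie above the pools in pineal gland and below them in retina, LBR the reverse, and CYP51A1 has no value because it failed the filter.

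Markers of other cell types differed between the tissues too. The 9 oligodendrocyte markers summed to 43.8 to 440 FPKM in pineal libraries, 12.4 to 19.6 in retina libraries and 750 and 951 in the pools. The 5 astrocyte markers summed to 226 to 610 FPKM in pineal libraries, 74.9 to 159 in retina libraries and 479 and 572 in the pools. The 6 markers of microglia and macrophages summed to 64.6 to 134 FPKM in pineal libraries, 3.52 to 11.5 in retina libraries and 77.2 and 87.5 in the pools. Each of these 3 sums was higher in every pineal library than in any retina library, but not every marker was. Every pineal library was above every retina library for 5 of the 9 oligodendrocyte markers, 3 of the 5 astrocyte markers and 5 of the 6 markers of microglia and macrophages. The glutamate transporter SLC1A2, on the astrocyte list, was lower in every pineal library (9.95 to 33.0 FPKM) than in any retina library (39.1 to 99.4 FPKM), and the macrophage marker CD68 had a median of 0.0484 FPKM in pineal gland and 0.5004 in retina. The sum of the 5 Muller glia markers went the other way, at 93.4 to 154 FPKM in pineal libraries, 451 to 617 in retina libraries and 215 and 219 in the pools. The 5 markers of retinal pigment epithelium summed to 273 to 1145 FPKM in pineal libraries, 9.29 to 150 in retina libraries and 67.0 and 126 in the pools. TTR carried most of that sum, with medians of 592 FPKM in pineal gland and 30.00 in retina. TTR and MITF, 2 of the 5 markers, were higher in every pineal library than in any retina library. MITF was at 17.1 to 23.8 FPKM in pineal libraries and 2.79 to 5.92 FPKM in retina libraries. RPE65 had medians of 24.2 FPKM in pineal gland and 23.5 in retina. BEST1 (0.251 and 1.42) and PMEL (0.178 and 0.692) had lower medians in pineal gland. No marker of these 5 lists was at 0 in every library of a tissue. The 10 markers of tissues in the pools summed to 4.05 to 247 FPKM in pineal libraries, 1.13 to 3.48 in retina libraries and 1886 and 1898 in the pools; the value of 247 was pineal dusk 3. The part of these cell types in the differences between tissues was not tested.

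Set against the pools, pineal gland was above the mixed tissues in 9 of these genes and below in 4. The 13 calls of 25 stood beside 52.8% of all genes called, 23.8% higher and 29.1% lower in pineal gland. Higher in pineal gland were HMGCS1 (0.53 ± 0.14), IDI1 (0.49 ± 0.14), GGPS1 (0.24 ± 0.09), SQLE (0.84 ± 0.15), LSS (0.95 ± 0.30), HSD17B7 (0.84 ± 0.15), SC5D (0.78 ± 0.10), INSIG1 (0.70 ± 0.22) and STARD4 (0.76 ± 0.13). Lower were FDPS (-0.66 ± 0.14), TM7SF2 (-0.84 ± 0.20), LBR (-0.78 ± 0.14) and INSIG2 (-0.91 ± 0.13). INSIG2 was 2.03 to 2.88 FPKM in pineal libraries and 4.74 and 5.22 FPKM in the pools. With 2 pools these calls are fragile: 8 genes were called without the midnight pool and 10 without the mid-day pool. IDI1, GGPS1, LSS and INSIG1 were not called when either pool was left out, nor HMGCS1 without the midnight pool, and GGPS1 was also lost without any 1 of 5 pineal libraries (mid-day 1, dusk 1, dusk 3, midnight 2 and midnight 3).

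Retina was above the pools in 8 genes and below in 9. The 17 calls of 25 stood beside 62.5% of all genes called, 33.5% higher and 29% lower in retina. SCAP was 29.0 to 36.0 FPKM in retina libraries and 16.7 and 16.8 FPKM in the pools, a change of 0.94 ± 0.07, and PMVK was 23.0 to 30.5 FPKM in retina libraries and 13.8 and 13.9 FPKM in the pools, a change of 0.89 ± 0.08. GGPS1 (0.70 ± 0.07), MVK (0.68 ± 0.12), SQLE (0.57 ± 0.11), HSD17B7 (0.40 ± 0.16), MVD (0.38 ± 0.11) and LBR (0.28 ± 0.09) were also higher in retina. ACAT2 (-0.99 ± 0.24), FDPS (-0.74 ± 0.28), NSDHL (-0.73 ± 0.13), HMGCS1 (-0.73 ± 0.16), INSIG1 (-0.60 ± 0.21), FDFT1 (-0.51 ± 0.13), SREBF2 (-0.48 ± 0.11), INSIG2 (-0.47 ± 0.12) and TM7SF2 (-0.25 ± 0.10) were lower. SQLE, GGPS1 and HSD17B7 were thus called above the pools in both tissues, and FDPS, TM7SF2 and INSIG2 below them in both; both comparisons share the same pools. The retina calls of FDPS, TM7SF2 and HSD17B7 held in 12, 10 and 8 of 21 alternatives. FDPS lost its call without any 1 of retina dawn 1, dawn 3, mid-day 2, dusk 2, dusk 3, midnight 1 and midnight 2. TM7SF2 lost it without dawn 1, dawn 3, dusk 1, dusk 3, midnight 1 or midnight 2, and HSD17B7 without dawn 1, dawn 3, mid-day 2, mid-day 3, dusk 2, dusk 3, midnight 2 or midnight 3. Without the midnight pool 8 genes were called and without the mid-day pool 10; FDPS, TM7SF2, HSD17B7, MVD, LBR and INSIG1 were not called when either was left out. ACAT2, FDFT1 and INSIG2 were not called without the midnight pool, nor SREBF2 without the mid-day pool. The count was 20 without retina mid-day 1, and also without retina dawn 2 and mid-day 1 together, where IDI1 (-0.31), SC5D (-0.31) and EBP (0.58) were added.

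Over the day, limma called none of the 25 genes in any of the 6 pairs of times, nor in the F test over the 4 times, in either tissue. Voom on the recovered reads also called 0 in each. At an unadjusted p under 0.05, the pineal pairs gave 3 genes in mid-day against dawn (13.6% of all genes), 2 in dusk against mid-day (3.86%), 5 in midnight against dusk (12.8%), 3 in dawn against midnight (9.52%), 9 in dusk against dawn (17%) and 4 in midnight against mid-day (10.6%). The pineal F test gave 7 (14.5%). At the adjusted threshold, limma called 0.0314%, 0.0209%, 0.0576%, 0%, 0.586% and 0.0419% of all genes in these pairs in that order, and 0.105% in the F test, so calls of any gene were few.

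The pineal pair with the most genes at an unadjusted p under 0.05 was dusk against dawn, though none passed the adjusted threshold. The log2 change was above 0 in 21 of 25, against 60.6% of all genes, and its median was 0.25, against 0.08 over all genes. In 12 genes all 3 dusk libraries were above all 3 dawn libraries (15.5% of all genes), and in 2 they were below (9.05%). Without pineal dusk 3, the library with spermatid transcripts, 21 were still above 0 and the median was 0.24, against 0.07 over all genes, and 4 genes rather than 9 had an unadjusted p under 0.05, near the share of 16.1% of all genes. With FPKM rescaled by median-of-ratios size factors 20 were above 0, 5 had an unadjusted p under 0.05, beside 15.7% of all genes, and the median was 0.18, against 0.01 over all genes. Oligodendrocyte markers summed to 99.2 to 168 FPKM at dusk and 56.5 to 440 FPKM at dawn, and photoreceptor markers to 112 to 159 FPKM at dusk and 43.1 to 97.8 FPKM at dawn; the part of either in these differences was not tested. In midnight against dusk, 6 genes had all midnight libraries below all dusk libraries (14% of all genes) and 1 had them above (8.09%).

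The authors' deposited tables, whose columns are those of DESeq2, called 4 of these genes in pineal dusk against dawn, beside 6.15% of all their tested genes, and 3 in pineal midnight against dusk, beside 5.04%. They called none of the 26 in the other pineal pairs, where 1.53% of all genes were called in mid-day against dawn, 0.126% in dusk against mid-day, 1.41% in dawn against midnight and 1.01% in mid-day against midnight. They also called none in any retina pair, where the shares of all genes were 0.851%, 0.0809%, 2.54%, 0.366%, 4.05% and 2.44%, for mid-day against dawn, dusk against mid-day, midnight against dusk, dawn against midnight, dusk against dawn and midnight against mid-day. The 5 genes involved, INSIG1, FDFT1, HMGCS1, SC5D and SREBF1, are given library by library because of those calls, and so were chosen after their values were seen. None of them passed the threshold in the limma fit on FPKM.

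INSIG1 had 58.5, 55.1 and 50.4 FPKM in the dusk pineal libraries and 36.6, 28.7 and 29.7 FPKM at dawn, all dusk values above all dawn values. The limma change was 0.78 ± 0.25 with an adjusted p of 0.158, and the authors' deposited table gave 0.68 with an adjusted p of 0.000265. Mid-day libraries disagreed among themselves, at 57.2, 27.6 and 26.6 FPKM, and midnight libraries lay between at 49.3, 37.4 and 42.9 FPKM. Without mid-day 1, the high one, INSIG1 passed in dusk against dawn with a limma adjusted p of 0.0367, the lowest of a range that reached 0.374 over the 19 alternatives.

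FDFT1 had a similar course in pineal gland. Its dusk libraries were at 32.2, 26.3 and 32.7 FPKM against 18.3, 19.2 and 21.1 FPKM at dawn (0.62 ± 0.17, limma adjusted p = 0.110; 0.54 with adjusted p = 0.00457 in the authors' deposited table). Its midnight libraries were at 23.5, 20.9 and 18.9 FPKM, all below those of dusk (-0.52 ± 0.17, limma adjusted p = 0.237; -0.45 with adjusted p = 0.0273 in the authors' deposited table). Mid-day 1 was again above the other 2 mid-day libraries, at 33.8 against 23.4 and 20.6 FPKM.

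HMGCS1 was also highest at dusk on the mean. It had 34.1, 30.0 and 28.2 FPKM in the midnight pineal libraries and 44.3, 39.6 and 54.4 FPKM at dusk, without overlap. The limma change was -0.57 ± 0.16 with an adjusted p of 0.176, and the authors' deposited table gave -0.49 with an adjusted p of 0.0206. The value of 54.4 FPKM was pineal dusk 3, and without it the limma change was -0.44.

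SC5D and SREBF1 had the opposite shape. SC5D was at 23.7, 24.2 and 26.4 FPKM in the dusk pineal libraries and 30.0, 32.7 and 37.9 FPKM at dawn (-0.43 ± 0.11, limma adjusted p = 0.0995; -0.50 with adjusted p = 0.00855 in the authors' deposited table). SREBF1 was at 8.71, 6.91 and 7.78 FPKM at dusk and 10.4, 9.38 and 11.1 FPKM at dawn (-0.38 ± 0.16, limma adjusted p = 0.252; -0.46 with adjusted p = 0.0418 in the authors' deposited table). At midnight SREBF1 was at 9.47, 14.2 and 11.4 FPKM, all above dusk (0.54 ± 0.16, limma adjusted p = 0.183; 0.58 with adjusted p = 0.0161 in the authors' deposited table). In both genes the dusk and dawn groups were apart, with dusk lower.

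**Figure D3:**
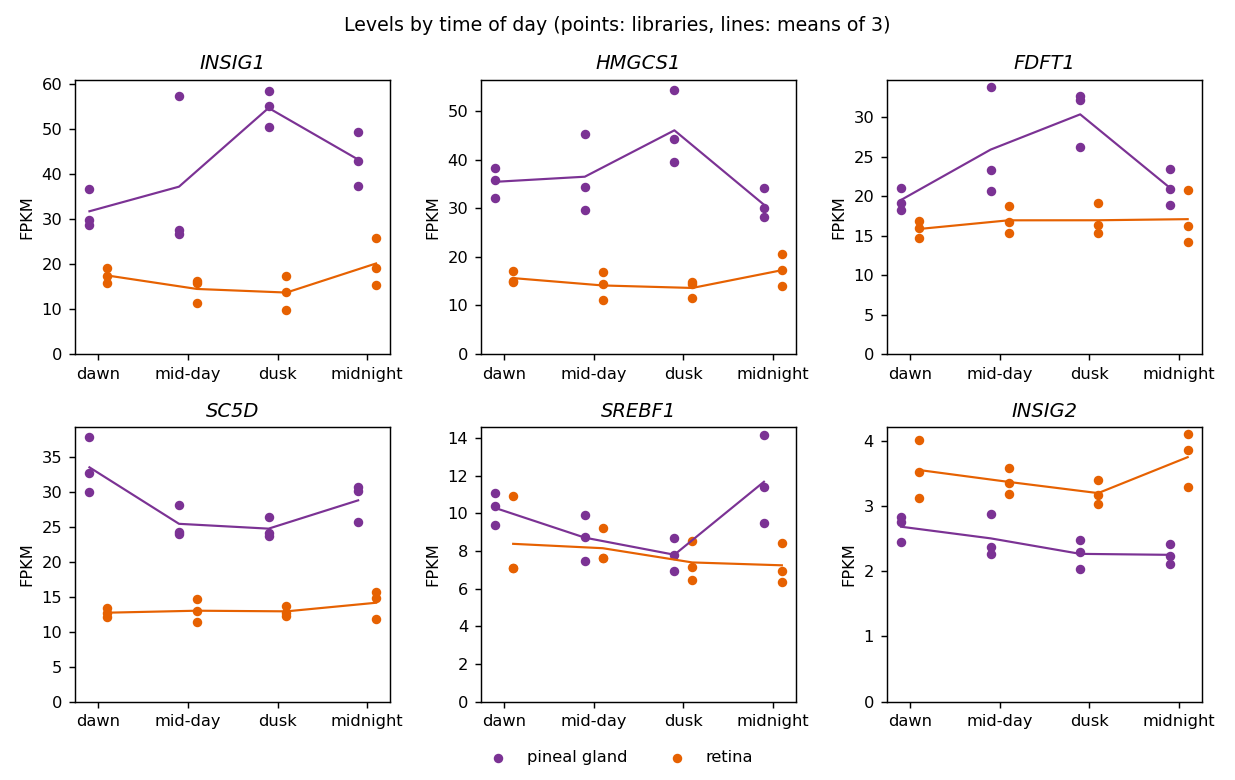
FPKM at dawn, mid-day, dusk and midnight for the 5 genes called in the authors' deposited pineal tables and for INSIG2; points are libraries and lines join means of 3, with pineal gland left of retina at each time. In pineal gland INSIG1, FDFT1 and HMGCS1 have their highest mean at dusk, with 1 high mid-day library in each, SC5D its highest at dawn and SREBF1 its highest at midnight.

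On the time means the retina was flatter. The highest of the 4 time means was 1.18 times the lowest in the median gene of the 26, against 1.36 times in pineal gland. This ratio also rises with the spread between libraries of a time, and it was not computed over all genes. No retina gene had an unadjusted p under 0.05 in the F test over the 4 times (10.2% of all genes), and limma called 0% of all genes in that test. At an unadjusted p under 0.05 the retina pairs gave 2 genes in mid-day against dawn (7.8%), 0 in dusk against mid-day (3.65%), 2 in midnight against dusk (10.8%), 1 in dawn against midnight (4.49%), 1 in dusk against dawn (10.7%) and 1 in midnight against mid-day (11.2%). At the adjusted threshold limma called 0.0274% of all genes in midnight against dusk and 0% in the other 5 pairs. INSIG1 in retina had 17.2, 13.8 and 9.82 FPKM at dusk and 15.8, 19.2 and 17.3 FPKM at dawn. The dusk-against-dawn difference of INSIG1 was 1.16 ± 0.35 larger in pineal gland than in retina (limma adjusted p = 0.185). Of the 25 genes 8 had an unadjusted p under 0.05 for this difference between tissues in dusk against dawn, beside 11.1% of all genes, and 5 for the difference of the whole 4-time profile, beside 9.4%. At the adjusted threshold limma and voom called none of the 25 in either test, and limma called 0.303% and 0.218% of all genes. The dusk-against-dawn difference between tissues was above 0 in 20 of the 25, beside 48% of all genes. By XIST, sex and time coincided in the dusk and dawn retina libraries, so they cannot be told apart there.

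The highest mean fell most often at dusk in pineal gland and at midnight in retina, though limma called none of the 25 genes over the day in either tissue. Among the 25 tested genes the pineal mean was highest at dusk in 12 (31.4% of all tested genes), at midnight in 8 (22.8%), at mid-day in 3 (22.3%) and at dawn in 2 (23.5%), and it was lowest at dawn in 15 (35.4%). The retina mean was highest at midnight in 11 (27.8%), at mid-day in 6 (23.3%), at dawn in 5 (17.9%) and at dusk in 3 (30.9%). It was lowest at dusk in 11 (19.6%). A single library carried much of the retina pattern: retina midnight 3 held the highest value of 12 of the 25 genes, against 10.7% of all genes tested. INSIG1 there was at 25.8 FPKM, against 19.2 and 15.2 FPKM in the other midnight retina libraries, and HMGCS1 at 20.6 FPKM, against 17.2 and 14.0 FPKM. In pineal gland, mid-day 1 was above both other mid-day libraries in 16 of the 26 genes, among them MSMO1 at 48.3 FPKM against 28.6 and 19.99 FPKM. It was not alone in this: pineal dawn 3 was above both other dawn libraries in 15. In retina the like counts were 19 for midnight 3, 15 for mid-day 1 and 14 for dawn 2. The share of all genes was not counted for this measure.

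**Figure D4:**
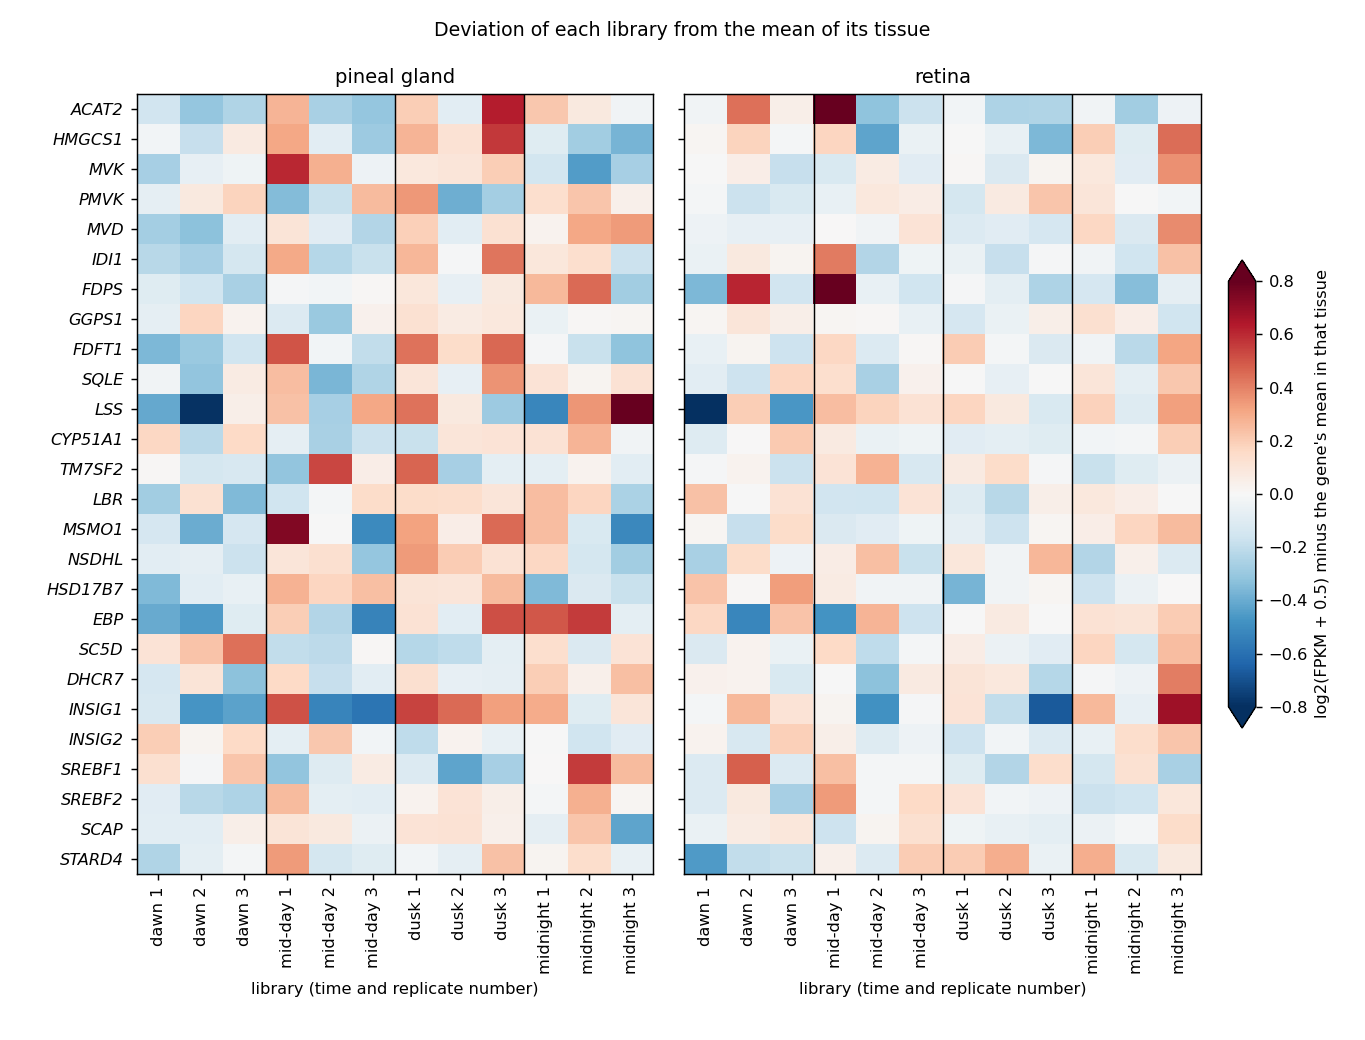
Deviation of log2(FPKM + 0.5) from the gene's mean in its tissue, for the 26 genes (rows) and the 12 pineal and 12 retina libraries (columns, 3 per time); colours end at -0.8 and 0.8. Pineal midnight 2, mid-day 1 and dusk 3 hold the highest pineal value of 6, 5 and 4 genes, and retina midnight 3 the highest retina value of 12. ACAT2 and FDPS are high in retina dawn 2 and mid-day 1.

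Genes around the pathway were read from 5 lists of 57 genes; as background to each count, 83% of all genes tested were called in pineal gland minus retina, 34.9% higher and 48.1% lower. In pineal gland minus retina, the 12 fatty acid genes known as SREBP-1 targets gave 8 higher and 2 lower, a share called like that of all genes, with a median change of 0.92, against -0.18 over all genes. ACLY, which supplies cytosolic acetyl-CoA to both pathways, averaged 207 ± 43.1 FPKM in pineal gland and 28.6 ± 2.16 FPKM in retina (SD, n = 12 each), with 28.4 ± 1.65 FPKM in the pools, and changed by 2.80 ± 0.06. FADS2, a desaturase of polyunsaturated fatty acids, averaged 17.5 ± 3.65 FPKM in pineal gland and 3.38 ± 0.946 FPKM in retina, a change of 2.23 ± 0.14. ME1, a source of NADPH, and the elongase ELOVL6 were the 2 that were lower, by -0.74 ± 0.10 and -0.58 ± 0.08.

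Genes for taking up, storing and oxidising sterol gave 12 higher and 1 lower of 13. CH25H and CYP27A1, which hydroxylate cholesterol, changed by 2.53 ± 0.16 and 2.42 ± 0.08. CH25H averaged 4.20 FPKM in pineal gland and only 0.254 FPKM in retina. It is also known from macrophages, for which 5 of 6 markers were higher in every pineal library than in any retina library, CD68 being the exception. The part of macrophages in the CH25H change was not tested. The lipoprotein receptor VLDLR was the 1 that was lower, at 1.70 ± 0.636 FPKM in pineal gland and 12.7 ± 1.45 FPKM in retina, a change of -2.63 ± 0.12. Of 7 tested genes of sterol efflux and its LXR receptors, 3 were higher and 4 lower: the phospholipid transfer protein PLTP changed by 3.72 ± 0.16 and the exporter ABCA1 by 1.96 ± 0.10, whereas the exporters ABCG1 and ABCG4 changed by -2.15 ± 0.10 and -1.88 ± 0.07. Of the 9 genes of SREBP processing and sterol-regulated ubiquitin ligation 2 were higher and 4 lower, FAF2 at 0.31 ± 0.03 and PAQR3 at -0.49 ± 0.06 being the outermost. Of the 15 genes of the isoprenoid branch 6 were higher and 9 lower; ICMT, which methylates prenylated proteins, was at 26.1 ± 4.28 FPKM in pineal gland and 74.8 ± 7.37 FPKM in retina.

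A pair of genes on these lists was called over the day, in pineal dusk against dawn, where limma called 0.586% of all genes. LRP8, a lipoprotein and reelin receptor, fell at dusk against dawn in pineal gland, with 24.99, 23.3 and 20.5 FPKM at dusk and 69.3, 64.3 and 74.95 FPKM at dawn (-1.58 ± 0.23, limma adjusted p = 0.0268). ABCG1 fell likewise, with 4.52, 4.55 and 4.30 FPKM at dusk and 13.8, 9.64 and 15.5 FPKM at dawn (-1.42 ± 0.25, limma adjusted p = 0.0446). LRP8 was called in 13 of 19 alternatives (adjusted p 0.000691 to 0.119) and ABCG1 in 10 of 19 (0.0185 to 0.150). Each missed the threshold without any 1 of pineal dawn 1, dawn 3, dusk 1, dusk 2 and dusk 3, and ABCG1 also without midnight 2 or midnight 3. The dusk-against-dawn difference itself differed between pineal gland and retina for LRP8 (-1.69 ± 0.31, limma adjusted p = 0.0199), ABCG4 (0.97 ± 0.20, adjusted p = 0.0366) and ACLY (-0.78 ± 0.16, adjusted p = 0.0366). On the retina side of this comparison, time cannot be told apart from sex by XIST. ACLY was at 169, 148 and 155 FPKM in the dusk pineal libraries and 262, 220 and 284 FPKM at dawn, and at 31.7, 27.7 and 28.9 FPKM in the dusk retina libraries and 28.2, 28.3 and 26.2 FPKM at dawn. ABCG4 was at 10.8, 14.4 and 11.3 FPKM in the dusk pineal libraries and 7.25, 8.65 and 5.96 FPKM at dawn, and at 34.8, 39.2 and 33.0 FPKM in the dusk retina libraries and 44.8, 43.5 and 40.3 FPKM at dawn. In both genes the dusk libraries did not overlap the dawn libraries in pineal gland. The difference between tissues was called for ACLY in 12 of 32 alternatives (adjusted p 0.0122 to 0.116), for ABCG4 in 18 (0.0129 to 0.113) and for LRP8 in 26 (0.00132 to 0.110). All 3 calls were lost without pineal dawn 3, without pineal dusk 2, and without retina dawn 1, dawn 3 or dusk 1.

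Near-identical copies and an overlapping antisense gene limit some of these values, since counting could share reads with them. The pseudogene FDPSP3 had medians of 4.12 FPKM in pineal gland, 0.276 in retina and 0.698 in the pools, against 6.08, 5.37 and 10.04 for FDPS. CYP51P3 had medians of 0.762 FPKM in pineal gland, 0.834 in retina and 1.79 in the pools, more than CYP51A1 in each. IDI2, a paralogue of IDI1, was at 0.449 to 7.85 FPKM in pineal libraries and 0.985 to 3.54 FPKM in retina libraries. STARD4-AS1, antisense to STARD4, had medians of 0.110 FPKM in pineal gland, 3.00 in retina and 0.122 in the pools; the strand setting is not given in the sources used here, so reads of STARD4 and its antisense gene cannot be told apart. The build named in the submitters' processing notes is the human hg19, so a macaque gene with a divergent sequence may be counted low.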

How the data were processed

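The members and lists were chosen with earlier results of these data known. The authors deposited FPKM per gene and library, replicates not pooled; the submitters' processing notes name FastQC, STAR 2.3.0e, Subread, featureCounts, DESeq2 and the human build hg19. Annotation and strand setting are not given in the sources used here. The authors also deposited log2 fold changes with p-values for pairs of times and for tissue against pools, per the file headers. The pineal and retina tables against pools were identical in all gene rows; member signs matched retina for 25 of 25 and pineal gland for 17 of 25, so neither is used here. FPKM steps gave whole reads within 0.0001 reads for 40687 of 40687 genes above 0 in at least 2 libraries, and these reads served for depth and for voom. limma 3.58.1 (R 4.3.3, trend) was fitted to log2(FPKM + 0.5) for 19 comparisons, two-sided, after a test on simulated data; figures used matplotlib 3.10.9. Members were described by role, with lowest, median and highest values for the larger tissue changes; values by library were reserved for members called over time, of which limma gave none, and are given for those called in the authors' deposited time tables. All 26 symbols were found in the macaque gene table. Every pair of libraries of a group differed beyond counting noise (chi-square per gene 8.50 to 40.5). Per the labels 3 animals were taken at each time. XIST was above EIF1AY in 3 pineal and 1 retina libraries at mid-day, 1 and 0 at dawn, and 2 and 3 at dusk. If each library is of 1 animal, the libraries of both tissues at these times cannot all be matched by animal. Alternatives were pseudocounts of 0.1 and 1, no filter, median-of-ratios scaling, voom, a replicate block, an XIST term, each library left out, and retina dawn 2 and mid-day 1 left out together.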

Additional observations from a re-analysis of the deposited data

Results flagged for a closer look

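A set of 3 genes moved in opposite directions against the pools in the 2 tissues, with both differences called. The difference between tissues was called as well, but its size follows from the 2 pool differences, so it is not separate support. INSIG1 was higher in pineal gland than in the pools (0.70) and lower in retina than in the pools (-0.60), and changed by 1.30 in pineal gland minus retina. HMGCS1 was at 0.53 in pineal gland and -0.73 in retina against the pools, and at 1.26 in pineal gland minus retina. LBR was at -0.78 in pineal gland and 0.28 in retina against the pools, and at -1.07 in pineal gland minus retina. Each pool comparison rests on the same 2 pools: the retina calls of INSIG1 and LBR and the pineal call of INSIG1 were lost without either pool, and the pineal call of HMGCS1 without the midnight pool, whereas all 3 differences between the tissues held in all 32 alternatives.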

How the results depend on the processing

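With single libraries left out, the number of the 25 genes called ran from 8 to 14 in pineal gland minus pools, from 8 to 20 in retina minus pools and from 0 to 1 in pineal dusk minus dawn, where INSIG1 was added without pineal mid-day 1. Leaving 1 pool makes it a lone sample assumed to vary like the tissue groups. No gene called in a tissue comparison reversed its direction under any alternative run, and the count in pineal gland minus retina stayed at 21 to 23. Genes that were not called could turn sign, such as MSMO1 in pineal gland minus retina (-0.12 to 0.04). Same-numbered pineal and retina libraries did not deviate together (correlation -0.05 to 0.11 over 12 pairs). Such correlations between different tissues cannot show whether libraries share an animal. By XIST and EIF1AY 6 of the 12 pairs were of the same sex, so the numbers do not mark the animal throughout. With a replicate block 21 genes were called in pineal gland minus retina and 0 in every comparison of times. No paired analysis was possible for the pools because they share too few numbers with the tissues. CYP51A1 rested on 7 to 20 reads per pineal library and 3 to 12 per retina library, and the reason was not tested. The 3 libraries per time limit the precision of every comparison of times.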
